A study of Canis lupus familiaris with 8 samples.

Results

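FOXP3 and IKZF2 were followed in single T cells from the blood of 4 healthy Beagles. Both were taken by their symbol in the gene list of the count tables, where FOXP3 carries the identifier ENSCAFG00000015934 and IKZF2 the identifier ENSCAFG00000014224, so that the genes described are 2 of 20257. Cells positive for TCRαβ were sorted from mononuclear cells and frozen after the sort, and each dog gave 1 library of 5' gene expression and 1 library of T cell receptor (V(D)J) transcripts. The female, dog 1, was aged 5 years, and the males were aged 7 (dogs 2 and 3) and 9 years (dog 4). The dogs had been given routine vaccinations, and no treatment was compared. All samples were thawed and sequenced together. The dog is the replicate (n = 4), so that age and sex cannot be told apart from the single animal. No test counted cells, which come from the same 4 animals, as replicates. The exact intervals given for some shares are over cells and leave out the spread between dogs.

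FOXP3 is the transcription factor that defines regulatory T cells, which restrain immune responses. It raises genes such as CTLA4 and IL2RA, the high-affinity chain of the interleukin-2 receptor, and holds down others such as IL7R, the interleukin-7 receptor. IKZF2 encodes Helios, a zinc finger protein of the Ikaros family that is found in many regulatory T cells but also in some CD8 and innate-like T cells. It is known to help keep regulatory T cells stable.

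Of 33125 barcodes, 31909 passed the limits of 500 to 20000 unique molecular identifiers (UMIs, each standing for 1 captured transcript) and at most 10% of UMIs from mitochondrial protein genes. The libraries held 7096 to 8454 such cells with a median of 3599 to 3931.5 UMIs. Pairs of libraries had 81 to 113 cell barcodes in common, at most 1.34% of the cells of a library. A cell counted as positive for a gene from 1 UMI upward. Cells with a CD4 UMI and no CD8A UMI are called CD4 sp (single-positive, 13247 cells), those with the reverse CD8A sp (6427 cells), those with both dp (725 cells), and those with neither dn (11510 cells). The dn label means only that no transcript of either gene was captured, not that the proteins were lacking.

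FOXP3 was captured in 1292 cells (4.05%) and IKZF2 in 2434 cells (7.63%). Most positive cells held a single UMI, 73.6% of them for FOXP3 and 75.3% for IKZF2, and the highest counts in a cell were 11 and 8. Both genes were captured in 422 cells, which is 32.7% of the FOXP3+ cells and 17.3% of the IKZF2+ cells. The CD4 sp class held 228 of these cells, the dn class 169, the dp class 14 and the CD8A sp class 11.

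Over whole classes, FOXP3 was higher in CD4 sp and dn cells than in CD8A sp cells, whereas IKZF2 was highest in CD8A sp cells. Both genes were detected in all 3 classes. Summed over the CD4 sp cells of each dog, FOXP3 stood at 9.34, 19.9, 25.9 and 15.9 CPM (the UMIs of the gene per 1000000 UMIs of the class) in dogs 1 to 4. In dn cells it stood at 14.4, 19.6, 21.1 and 22.6 CPM, and in CD8A sp cells at 0.354, 4.25, 6.48 and 2.48 CPM. Every CD4 sp and dn value lay above every CD8A sp value, while the CD4 sp and dn ranges overlapped. In the fit over all genes with edgeR's quasi-likelihood test, FOXP3 was higher in CD4 sp than in CD8A sp cells by 2.21 on the log2 scale (SE 0.41, adjusted p = 0.0026), and higher in dn than in CD8A sp cells by 2.33 (SE 0.41, adjusted p = 0.0022). Of the 10393 genes tested, 7.58% were higher in CD4 sp and 7.43% higher in dn cells, both against CD8A sp.

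IKZF2 stood at 51.6, 37.6, 25.5 and 41.7 CPM in CD8A sp cells of dogs 1 to 4. In CD4 sp cells the values were 18.9, 28.6, 24.6 and 18.1 CPM, and in dn cells 23.4, 30.8, 18.6 and 25.2 CPM. CD8A sp was the highest class in dogs 1, 2, 3 and 4, but the value of dog 3 in CD8A sp cells lay within the range of the other classes. IKZF2 was lower in CD4 sp than in CD8A sp cells (log2 change -0.75, SE 0.21, adjusted p = 0.029 by edgeR, where 8.38% of genes tested were lower). The call was lost when dog 1 (-0.54), dog 2 (-0.90) or dog 4 (-0.60) was left out. Between dn and CD8A sp cells the change of -0.65 missed the threshold (adjusted p = 0.059) and passed it with the dog as a block (-0.62, adjusted p = 0.015) and with DESeq2 (-0.67, adjusted p = 0.024). The percentage of genes lower in dn than in CD8A sp cells was 7.65%.

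Neither gene differed detectably between dn and CD4 sp cells. The log2 changes were 0.12 for FOXP3 and 0.10 for IKZF2, with an adjusted p of 1.0 for each by edgeR, and 0.077% of the genes tested passed in either direction (0.0674% higher and 0.00962% lower in dn cells). That fit did not use the pairing by dog. With the dog as a block, 128 of the 10393 genes tested were higher and 25 lower in dn cells. As sums over a class, these levels do not separate more positive cells from more transcript per cell.

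**Figure D1:**
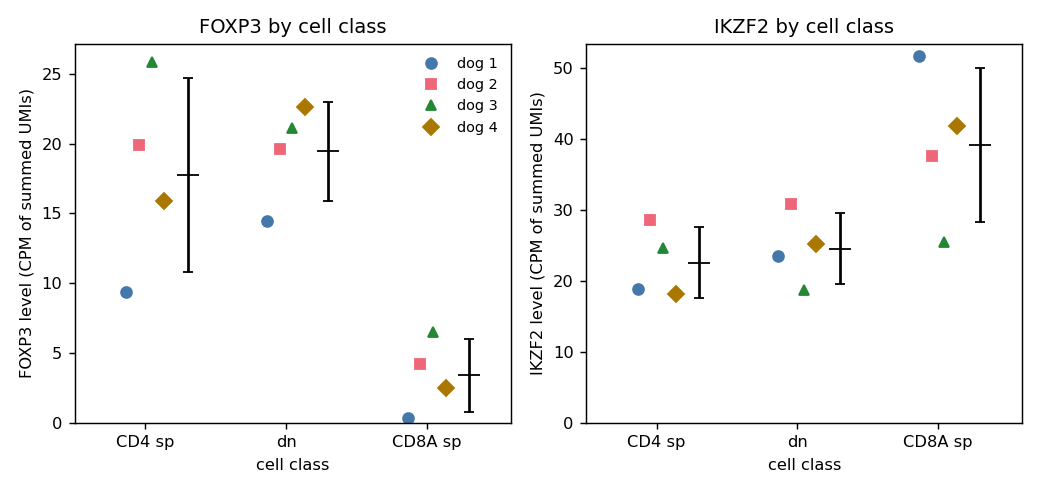
FOXP3 (left) and IKZF2 (right) in UMIs per 1000000 UMIs (CPM) summed over the cells of each class, with 1 symbol per dog and the mean and SD of the 4 dogs beside them. FOXP3 in CD8A sp cells is between 0.354 and 6.48 CPM, below all values of the other classes, and IKZF2 has its highest mean, 39.1 CPM, in CD8A sp cells.

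The shares of positive cells also set CD8A sp apart from the other classes. FOXP3 was captured in 4.84% ± 1.84 of CD4 sp cells (SD, n = 4), in 4.65% ± 0.915 of dn cells and in 1.11% ± 0.867 of CD8A sp cells. IKZF2 was captured in 6.48% ± 1.46, 6.21% ± 1.42 and 12.8% ± 3.52 of the same classes, and both genes together in 1.74% ± 0.517, 1.45% ± 0.387 and 0.144% ± 0.101. CD4 sp and dn cells were above CD8A sp cells for FOXP3 and for both genes, and below them for IKZF2, in each of the 4 dogs. By the exact sign-flip permutation test over dogs, two-sided, each of these differences had p = 0.13, the smallest that 4 dogs allow, and an adjusted p of 0.188 over the 9 comparisons of shares.

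At a common depth CD8A sp cells kept their place below the other classes for FOXP3 and above them for IKZF2. Over all cells, the dn shares were below the CD4 sp shares. Among cells of at least 2000 UMIs, dn cells were already higher before thinning for FOXP3 (5.34% against 5.06%) and for IKZF2 (6.78% against 6.72%). The share with both genes together was lower there in dn cells (1.74% against 1.86%) and higher only after thinning. The median cell held 3955 UMIs in the CD4 sp, 3496 in the dn and 3726 in the CD8A sp class. With every cell thinned to 2000 UMIs, which left out 1465 CD4 sp, 2541 dn and 715 CD8A sp cells, FOXP3 was expected in 2.60%, 2.94% and 0.571% of cells, IKZF2 in 3.25%, 3.55% and 6.88%, and both in 0.507%, 0.532% and 0.0374%. Cytotoxic CD8A sp cells with FCER1G and GZMB transcripts held a FOXP3 UMI in 2 of 957 cells, a mean of 0.187% ± 0.217 over dogs at a median of 3550 UMIs. They were the lowest for FOXP3 of the groups into which CD8A sp cells are split below. Being part of that class and the lowest in it, they are no independent background. Dog 1 had 1 FOXP3+ cell among 691 CD8A sp cells, whereas dog 3 had 50 among 2280 (2.19%, exact 95% interval 1.63 to 2.88%). No T cell group known to lack FOXP3 or IKZF2 was available as a background for either gene.

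IKZF2 was far more frequent in cells with FOXP3 than in cells without it, in CD4 sp and dn cells but not detectably in CD8A sp cells. Among CD4 sp cells, IKZF2 was captured in 37.6% ± 8.96 of FOXP3+ and 4.99% ± 1.19 of FOXP3- cells. Among dn cells the shares were 31.6% ± 8.0 and 4.99% ± 1.10. In CD8A sp cells, 11 of 86 FOXP3+ cells (12.8%) and 748 of 6341 FOXP3- cells (11.8%) were positive for IKZF2. In both of the first classes the lowest dog among FOXP3+ cells was above the highest dog among FOXP3- cells.

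Deep cells hold any pair of genes more often, so co-detection was also measured within 4 ranges of UMIs per cell. The pooled odds ratio (Mantel-Haenszel) in CD4 sp cells was 15.6, 9.34, 7.89 and 7.12 in dogs 1 to 4. In that class 228 cells held both genes where 55.5 were expected from the single frequencies within these ranges. In dn cells the odds ratios were 7.89, 8.90, 6.58 and 6.04, with 169 cells observed and 45.5 expected. The highest range, from 6000 UMIs up, held 108 of the cells with both genes in CD4 sp and 66 in dn cells. Depth still varied within it, and the part of that remaining depth was not tested. In CD8A sp cells 11 were observed and 10.5 expected, and the odds ratios of dogs 2 to 4 were 1.09, 0.995 and 1.23 (dog 1 had no cell with both). All 4 dogs were above 1 in the CD4 sp and dn classes (exact sign-flip permutation test, two-sided p = 0.13 for each, the smallest possible). With 86 FOXP3+ cells, the CD8A sp class gives a wide range, and its direction reversed when only cells with exactly 1 TCR beta (TRB) rearrangement were used.

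Over pooled cells, the share with IKZF2 was higher at higher counts of FOXP3. In CD4 sp cells it was 5.03% with no FOXP3 UMI, 29.5% with 1, 41% with 2 and 74.3% with 3 or more (55 of 74 cells). In dn cells it was 5.05%, 24.3%, 43.5% and 62.1% (36 of 58 cells) in the same order. The median depth rose along with it, from 3928 to 6730.5 UMIs in CD4 sp cells and from 3460 to 7102.5 UMIs in dn cells, and its part in the gradient was not tested. The 4 dogs were spread widely in the highest class, from 55% in dog 4 to 92.3% in dog 2 among CD4 sp cells and from 40% in dog 1 to 83.3% in dog 2 among dn cells, and in dn cells of dog 1 the share was lower there than at 2 UMIs (54.5%).

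**Figure D2:**
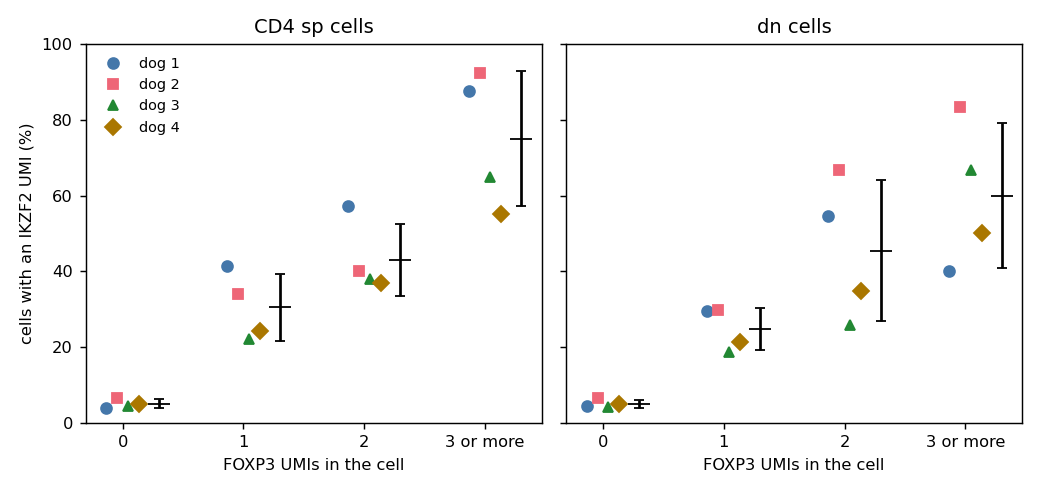
Percentage of cells with an IKZF2 UMI by the number of FOXP3 UMIs in the cell, for CD4 sp (left) and dn cells (right), with 1 symbol per dog and the mean and SD of the dogs. Cells without FOXP3 lie at 5% on average in both classes, and each dog was higher in cells with 1 FOXP3 UMI than in cells with none.

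GATA3, the master regulator of Th2 cells, was also captured more often beside FOXP3. In CD4 sp cells it was found in 50.7% ± 2.87 of FOXP3+ cells and 31.0% ± 3.19 of FOXP3- cells, and the dogs of the groups did not overlap. In dn cells the shares were 53.9% ± 7.83 and 34.0% ± 3.31. FOXP3+ cells were deeper, with medians over dogs of 4633.5 to 4879 against 3726 to 4072.5 UMIs in CD4 sp cells. In dn cells the medians were 3724 to 4703 against 3223 to 3566.5 UMIs. GATA3 was not measured within ranges of UMIs, and the part of depth was not tested.

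Cells were next split by single marker transcripts, each cell entering the first group that took it, to see where in each class the genes were expressed. In CD4 sp cells FOXP3 was highest in cells with MKI67, a marker of dividing cells, at 41.6, 73.8, 94.9 and 69.1 CPM in dogs 1 to 4. Cells with GATA3 followed at 26.4 ± 10.5 CPM (mean ± SD, n = 4), and the lowest levels were in cells with CCR7, a homing receptor of naive and central memory cells (8.97 ± 4.26 CPM), and in cells with KLRK1 or GZMK, genes of cytotoxic cells (8.61 ± 6.30 CPM). In dn cells the dividing group was again highest (46.5, 84.1, 98.4 and 94.4 CPM), ahead of CXCR3+ cells (34.7 ± 13.2 CPM), and CCR7+ cells were lowest (7.08 ± 2.94 CPM). In each dog and both classes the MKI67+ group had the highest value. The MKI67+ cells were also the deepest, with a median of 5632 UMIs in the CD4 sp and 5804.5 in the dn class. They held a minority of FOXP3+ cells, 71 of 622 in the CD4 sp and 59 of 538 in the dn class.

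IKZF2 had the same leading group in the CD4 sp and dn classes, at 86.9 ± 26.9 and 106 ± 4.28 CPM in MKI67+ cells, and was lowest in CCR7+ cells at 9.23 ± 2.94 and 10.5 ± 1.65 CPM. In CD8A sp cells its highest means were in cells with FCER1G, the Fc receptor gamma chain, which is found in innate-like T cells. FCER1G+ cells without GZMB, the gene of granzyme B, had 85.0, 83.3, 86.5 and 112 CPM, and FCER1G+ cells with GZMB had 98.4, 56.7, 51.6 and 64.0 CPM. The MKI67+ cells came next at 99.4, 27.9, 61.0 and 52.8 CPM, the highest group of dog 1. Cells with GZMB but no FCER1G had 35.1 ± 16.4 CPM, GZMK+ cells 20.8 ± 2.07 CPM and CCR7+ cells 11.4 ± 5.05 CPM. The FCER1G+ GZMB- group was above the FCER1G- groups without MKI67 in all 4 dogs with no overlap, but it overlapped with the FCER1G+ GZMB+ group. FOXP3 was at 1.25 ± 1.52 CPM in that group, so that IKZF2 was there almost without FOXP3. Among CD8A sp cells FOXP3 had its highest mean in CCR7+ cells (9.36 ± 5.13 CPM, 13 FOXP3+ cells of 445). CCR7+ cells of the CD4 sp class were at 8.97 ± 4.26 and those of the dn class at 7.08 ± 2.94 CPM. The lower FOXP3 of the whole CD8A sp class was therefore not seen among CCR7+ cells. The MKI67+ group of the CD4 sp and dn classes did not overlap with the group next to it for either gene, and no test was made between groups.

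**Figure D3:**
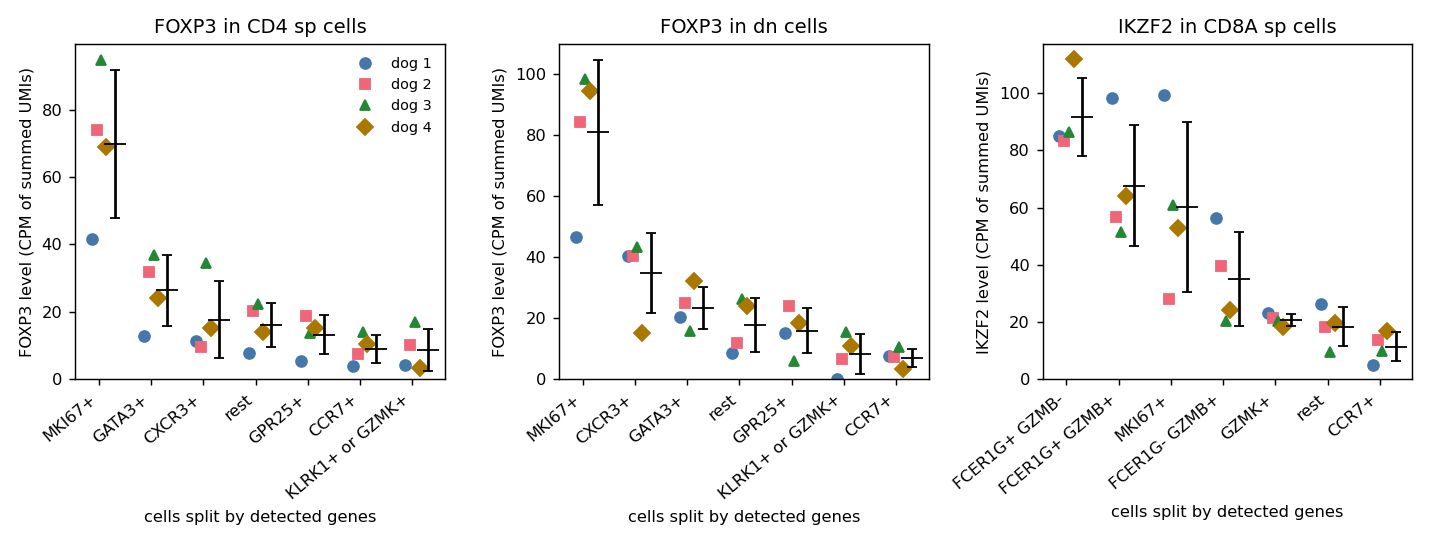
FOXP3 in CD4 sp cells (left) and dn cells (middle) and IKZF2 in CD8A sp cells (right), in CPM of summed UMIs, for cells split by detected marker genes; symbols are dogs, bars the mean and SD. Dividing (MKI67+) cells have the highest FOXP3 in every dog, and FCER1G+ GZMB- cells have the highest mean IKZF2 (91.7 CPM) among CD8A sp cells.

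FOXP3+ and FOXP3- CD4 sp cells were then compared across all genes, with UMIs summed per dog and FOXP3 itself left out. The FOXP3+ cells carried more transcripts of regulatory T cell genes, of IKZF2 and of MKI67, and fewer of IL7R and TCF7. IKZF2 stood at 162, 147, 120 and 78.7 CPM in FOXP3+ and at 13.6, 19.9, 15.6 and 14.6 CPM in FOXP3- cells of dogs 1 to 4, with no overlap (log2 change 2.98, SE 0.20, adjusted p = 4.0e-05 by edgeR). It kept that call under every alternative run, with 2.87 in cells of 3000 to 6000 UMIs and 3.0 in cells without MKI67. Of 9544 genes tested, 341 (3.57%) were higher and 138 (1.45%) lower in FOXP3+ cells, and 770 and 482 with the dog as a block.

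Fewer genes were called without deep or dividing cells. FOXP3+ cells had medians of 4633.5 to 4879 UMIs over the dogs, against 3726 to 4072.5 in FOXP3- cells. Without the MKI67+ cells 99 genes were higher and 21 lower, within 3000 to 6000 UMIs 24 and 4, without dog 2 36 and 6, and without 1 of the other dogs 139 to 263 and 31 to 71. The genes IKZF2, CTLA4, IL2RA, TNFRSF18, CCR4, CCR10 and TCF7 passed the test under each of these. Leaving out dog 2 ended the calls of GATA3, LGALS3, IL7R, CD40LG, IL10, IRF4, PRDM1, TNFRSF4 and TIGIT, which are described next.

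Of the 32 genes listed for regulatory T cells, 19 could be tested, 11 rose and 0 fell in FOXP3+ CD4 sp cells, with a median log2 change of 1.14 beside -0.02 over all genes tested. CTLA4, an inhibitory receptor of the CD28 family, stood at 373, 281, 266 and 265 CPM in FOXP3+ and at 99.6, 117, 115 and 156 CPM in FOXP3- cells (log2 change 1.28, SE 0.14, adjusted p = 0.00077 by edgeR). IL2RA was at 58.6, 26.4, 32.5 and 32.0 CPM against 6.85, 10.6, 7.15 and 8.58 CPM (2.10, SE 0.25, adjusted p = 0.0012 by edgeR). Neither gene overlapped between the groups. CCR4, a skin and tissue homing receptor, rose by 2.47 (53.9 ± 14.0 against 9.89 ± 2.84 CPM), and TNFRSF18, which encodes GITR, by 1.66 (60.6 ± 15.7 against 18.8 ± 3.27 CPM). NRP1 (3.21), IL10 (3.24), TIGIT (2.36), IRF4 (1.87), PRDM1 (1.14) and TNFRSF4 (1.02) also rose, as did MAF. IL10, an inhibitory cytokine, was at 15.6 ± 8.05 against 1.56 ± 0.621 CPM. At that level in FOXP3- cells it could pass the filter on low counts only with the FOXP3+ cells. Its place among the 11 genes that rose follows in part from that filter and gives no separate support. IKZF4, the Ikaros family member Eos, changed by 1.33 with an adjusted p of 0.068 by edgeR, and passed with the dog as a block (adjusted p = 0.037). TGFB1 (0.14) and ICOS (0.55) did not pass. Without MKI67+ cells the list had 8 genes higher and 0 lower with a median of 1.16, and within 3000 to 6000 UMIs 4 of 16 higher with a median of 1.04.

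Of 13 tested genes that FOXP3 is known to hold low or that are low in regulatory T cells, 0 rose and 4 fell (median -1.04). TCF7, a transcription factor of naive and memory cells, was at 123, 145, 120 and 115 CPM in FOXP3+ and at 422, 373, 368 and 308 CPM in FOXP3- cells (log2 change -1.55, adjusted p = 0.00014 by edgeR). IL7R was at 411 ± 104 against 855 ± 154 CPM (-1.04), CD40LG, the helper signal to B cells, at 44.9 ± 14.3 against 87.1 ± 4.99 CPM (-0.90), and the chemokine gene CCL5 at 11 ± 9.21 against 51.9 ± 26.2 CPM (-2.05). For these 4 genes every FOXP3+ value lay below every FOXP3- value. LEF1 (-1.09) and SATB1 (-1.06) did not pass.

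Among the other lists, 4 of 5 tested Th2 genes rose (GATA3 by 0.70, LGALS3 by 1.53, MAF and CCR4), and 0 of 7 Th1 genes passed. Of 8 inhibitory receptor and exhaustion genes TOX, TOX2, TIGIT and CTLA4 rose. MAF, CCR4, TIGIT and CTLA4 are also on the regulatory T cell list and were already counted there. Of 5 proliferation genes MKI67 rose (2.69, 146 ± 68.4 against 22.1 ± 4.63 CPM). The 19 known partners and regulators of FOXP3 had a median change of -0.14, with EZH2 higher and NFATC2 lower. The other Ikaros family genes IKZF1, IKZF3 and IKZF5 did not pass.

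The largest increases with the same direction in all 4 dogs, after FOXP3 and T cell receptor genes were set aside, were KRT27 (4.08), CFAP91 (3.79), LYZ (3.70), LHFPL6 (3.49), SYT13 (3.45), CCR10 (3.35), MXD3 (3.27), CCNB2 (3.26), IL10 (3.24) and YAP1 (3.22). KRT27 and LYZ, at 0.696 and 0.308 CPM on average in FOXP3- cells, passed the filter on low counts only through FOXP3+ cells. IL10 was likewise too scarce in FOXP3- cells to pass without FOXP3+ cells, and other leaders may have been too. The place of these genes among the leaders follows in part from that filter. CCR10, a chemokine receptor of skin-homing cells, was the most abundant of them at 15.6, 52.8, 33.6 and 41.3 CPM in FOXP3+ and 1.89, 4.01, 5.41 and 3.36 CPM in FOXP3- cells. KRT27, a keratin gene, was at 11.8 ± 3.06 against 0.696 ± 0.113 CPM, and YAP1, a growth-regulating coactivator, at 18.9 ± 7.92 against 2.12 ± 1.26 CPM. LYZ, a gene of monocytes, rested on 14 UMIs in FOXP3+ cells, and the monocyte genes CSF1R and S100A12 were at 0 UMIs there. MS4A1, a B cell gene, rose by 2.40 on 27 UMIs, and CD79B, another, was at 3.05 ± 1.95 against 0.259 ± 0.145 CPM on 9 UMIs. At 1.49 CPM on average in FOXP3- cells, MS4A1 too could not pass the filter without FOXP3+ cells. CD22 and PAX5 were at 0 in every group of cells, so that their rows tell nothing here. Summed without CD79A, the B cell markers were at 7.82 to 18.3 CPM in FOXP3+ and 3.43 to 5.90 CPM in FOXP3- cells, and the monocyte markers at 1.88 to 8.13 against 0.390 to 0.510 CPM. CD79A, also a B cell gene, was listed at 8086 ± 457 CPM in FOXP3+ and 9832 ± 583 CPM in FOXP3- cells of this T cell sort, and at 9305 to 9795 CPM on average in all 3 classes, so whether this row counts that gene is in doubt. The part of other cells in these values was not tested. The largest decreases were in BEND7 (-3.24), KATNAL1 (-2.41), SLC16A14 (-2.33), CCL5 (-2.05) and MRNIP (-1.93), and those of KATNAL1, SLC16A14, CCL5 and MRNIP were lost when any single dog was left out.

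In dn cells, other cells of the same dogs, FOXP3+ and FOXP3- cells were compared in the same way, and regulatory T cell genes and IKZF2 were again higher in FOXP3+ cells. Of the 10 genes that led the increases in CD4 sp cells, 7 could be tested and 7 rose. They were KRT27 (4.12), CFAP91 (3.42), CCR10 (2.71), LYZ (2.70), CCNB2 (2.72), IL10 (2.55) and YAP1 (2.27). Of the 5 leading decreases CCL5 fell and 4 did not pass. A gene scarce in FOXP3- cells, as LYZ was (3.92 against 0.644 CPM), could pass the filter on low counts only by being high in FOXP3+ cells. The count of 7 in 7 follows in part from that filter and gives no separate support. IKZF2 was at 142, 139, 76.4 and 109 CPM in FOXP3+ and at 18.0, 22.7, 14.2 and 19.3 CPM in FOXP3- cells (log2 change 2.64, SE 0.20, adjusted p = 0.0001 by edgeR). The groups did not overlap in any dog. Of 9401 genes tested, 277 (2.95%) were higher and 94 (1%) lower (3.95% in all), against 707 and 422 in the fit blocked on dog, 57 and 6 without dog 2, 122 to 177 and 28 to 44 without 1 of the other dogs, 51 and 8 without MKI67+ cells, and 15 and 5 within 3000 to 6000 UMIs.

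Of 19 tested regulatory T cell genes, 10 rose and 0 fell in FOXP3+ dn cells (median 0.98 beside -0.02 over all genes). IL2RA was at 75.0, 47.6, 56.3 and 68.7 CPM against 13.4, 18.1, 16.4 and 19.6 CPM (log2 change 1.84, adjusted p = 0.00025 by edgeR). CTLA4 rose by 1.21, TNFRSF18 by 1.64, NRP1 by 2.85, CCR4 by 1.53 and IRF4 by 1.48, while TIGIT (1.86) and MAF (0.69) did not pass. With the dog as a block TIGIT passed (1.83, adjusted p = 0.012 by edgeR). CD79B was at 2.95 against 0.176 CPM and MS4A1 at 7.33 against 2.89 CPM in FOXP3+ against FOXP3- dn cells. Of 13 tested genes held low by FOXP3 or low in regulatory T cells, 7 fell and 0 rose (median -1.07). CCL5 (-3.45, 11.2 ± 5.49 against 118 ± 40.5 CPM) and PDE3B (-2.37) led them. TCF7 fell by 1.67 and IL7R by 0.91, though IL7R did not pass without dog 2, without dog 4 or without MKI67+ cells. FCER1G was at 1.95 ± 3.90 in FOXP3+ and 13.6 ± 2.76 CPM in FOXP3- dn cells (-2.80), and CD160, a receptor of cytotoxic cells, had no UMI in FOXP3+ cells of any dog against 4.31 ± 1.56 CPM. The dn class can hold cytotoxic cells whose CD8A was not captured. Their part in the decreases of CCL5, FCER1G and CD160 was not tested. GATA3 rose by 0.52, from 147 ± 8.39 to 211 ± 18.7 CPM, and did not pass without dog 2 or without MKI67+ cells. The other leading increases were GADD45G (3.67), HHEX (3.58), CLSPN (3.45), RRM2 (3.40), FHOD3 (3.30), C1QTNF6 (3.27), PKMYT1 (3.19) and BAG3 (3.16), of which CLSPN, RRM2 and PKMYT1 act in DNA replication and the cell cycle, and NMB was a further decrease (-2.12).

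FOXP3+ cells of the CD4 sp class were next divided by IKZF2. The 228 cells with both genes and the 394 cells with FOXP3 alone differed in genes other than these 2, IL7R first among them. FOXP3 was at 261, 315, 334 and 288 CPM in cells with both and at 259, 264, 277 and 288 CPM in cells with FOXP3 alone (log2 change 0.12, SE 0.12, adjusted p = 0.65 by edgeR). Both groups were chosen by at least 1 FOXP3 UMI, and most FOXP3+ cells held only 1. This level therefore cannot show whether FOXP3 differed. IKZF2 was in 132 of 448 CD4 sp cells with 1 FOXP3 UMI and in 55 of 74 with 3 or more. Of 4999 genes tested, 201 (4.02%) were higher and 134 (2.68%) lower in cells with both (6.7% in all), and 304 and 247 with the dog as a block.

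IL7R was at 194, 196, 170 and 83.2 CPM in cells with both and at 343, 686, 669 and 709 CPM in cells with FOXP3 alone, with no overlap (log2 change -1.92, SE 0.21, adjusted p = 2.2e-05 by edgeR). TRAT1, an adaptor of the T cell receptor, fell by 2.17 (31.1 ± 14.5 against 145 ± 39.5 CPM), and IL7R and TRAT1 passed under every alternative run. BHLHE40 (-1.88), TMEM71 (-1.77), CHD7 (-1.74) and TCF7 (-1.49) also fell. Of 12 tested regulatory T cell genes, 8 rose and 0 fell (median 0.69 beside -0.01 over all genes), among them CCR4 by 1.80, IRF4 by 1.49, CTLA4 by 0.73 and TNFRSF18 by 1.06. CTLA4 was at 454, 317, 388 and 364 CPM against 272, 240, 198 and 204 CPM, and all dogs with both genes lay above all dogs with FOXP3 alone. GATA3 was at 239, 242, 198 and 191 CPM against 114, 135, 136 and 132 CPM (log2 change 0.71, adjusted p = 0.0028 by edgeR), again without overlap. IL2RA changed by 0.41 and did not pass (adjusted p = 0.56 by edgeR).

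The leading increases were SPC24 (2.99), RRM2 (2.94), TBXAS1 (2.55), KIF11 (2.36) and GNG3 (2.24), of which SPC24, RRM2 and KIF11 serve cell division. MKI67 rose by 2.02, with 289, 262, 164 and 256 CPM in cells with both and 105, 127, 14.3 and 15.2 CPM in cells with FOXP3 alone. Cells with both were deeper, with medians of 5268 to 6065.5 UMIs over dogs against 4239 to 4616, and had a median mitochondrial share of 2.09 to 2.54% against 1.31 to 2.13%. B cell markers without CD79A summed to 7.04 to 31.2 against 6.51 to 11.1 CPM (MS4A1 at 11.8 against 4.54 CPM, CD79B at 6.22 against 0.542 CPM), and LYZ was at 7.31 against 3.1 CPM. The part of other cells and of depth was not tested. Leaving out dog 2, 3 or 4 brought the counts to 66 to 105 genes higher and 38 to 58 lower. Without MKI67+ cells 93 genes were higher and 43 lower, and 7 of 10 regulatory T cell genes rose (median 1.0). Within 3000 to 6000 UMIs 7 genes were higher and 5 lower, and 1 of 6 of the list rose (CTLA4, 0.83).

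The same split in dn cells, added after the results for CD4 sp cells were seen, gave 124 genes higher (2.85% of 4353) and 93 lower (2.14%), and 202 and 176 with the dog as a block. FOXP3 was at 282, 310, 341 and 329 CPM in the 169 cells with both and at 365, 254, 282 and 356 CPM in the 369 cells with FOXP3 alone, with overlapping ranges (log2 change 0.03, SE 0.14, adjusted p = 0.95 by edgeR). Here too both groups were chosen by a FOXP3 UMI, so that this level cannot show whether FOXP3 differed. IL7R fell by 1.85 (190 ± 50.6 against 661 ± 248 CPM), TRAT1 by 2.27, TNFSF8 by 1.88 and CD52, a surface glycoprotein of lymphocytes, by 3.91 (8.72 ± 9.30 against 168 ± 72.6 CPM). MKI67 (2.08), FABP3 (1.67), GNG3 (1.65), TUBB6 (1.53) and APOBEC3Z3 (1.53) led the increases, and PIK3IP1 (-1.78) was a further decrease. Of 9 tested regulatory T cell genes, NRP1 (1.43) and IL2RA (1.25) rose and 0 fell, whereas CTLA4 (0.30) did not pass. With the dog as a block TNFRSF18 (0.94, adjusted p = 0.011 by edgeR) and CCR4 (0.996, adjusted p = 0.017 by edgeR) passed too. Without MKI67+ cells 0 of 8 of the list passed by edgeR (median 0.42). The dn cells with both were deeper, with medians of 4737 to 5235 against 3369 to 4548 UMIs, had a median mitochondrial share of 2.22 to 3.13% against 1.52 to 2.27%, and held MS4A1 at 13.3 against 2.87 CPM and LYZ at 9.01 against 0.610 CPM, whose part was not tested. Without dog 2, 3 or 4 the counts were 25 to 58 genes higher and 30 to 35 lower. Within 3000 to 6000 UMIs 0 genes passed by edgeR, with 151 at an unadjusted p under 0.05.

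**Figure D4:**
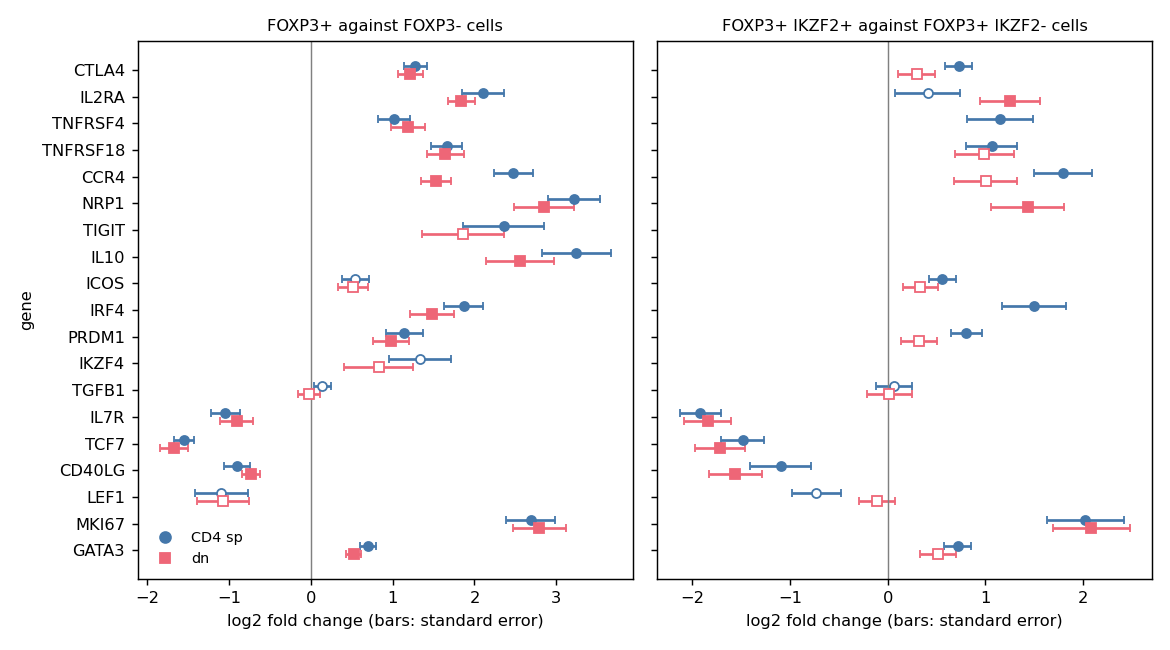
log2 fold changes with their standard errors for genes of the fixed lists, between FOXP3+ and FOXP3- cells (left) and, within FOXP3+ cells, between IKZF2+ and IKZF2- cells (right). Circles are CD4 sp and squares dn cells, filled where the adjusted p was under 0.05. CTLA4, IL2RA and TNFRSF18 lie above 1 and TCF7 lies below -1 in both classes on the left, and IL7R falls by 1.92 and 1.85 on the right.

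IKZF2 outside of FOXP3+ cells was examined in CD4 sp cells. The 635 IKZF2+ FOXP3- cells carried more cell cycle transcripts than the 11990 cells with neither gene, and more of some regulatory T cell genes. Of 9465 genes tested, 164 (1.73%) were higher and 56 (0.592%) lower (2.32% in all), and 629 and 436 with the dog as a block. The leading increases, H1-5 (4.22), CFAP91 (3.97), MYBL2 (3.89), UBE2C (3.77), CDCA3 (3.70), CCNB2 (3.67), NUF2 (3.60), H3C11 (3.59), RRM2 (3.57) and CLSPN (3.55), belong to histones, DNA synthesis and mitosis apart from CFAP91. MKI67 was at 224, 105, 166 and 49.2 CPM in IKZF2+ and at 16.6, 14.1, 6.89 and 20.9 CPM in IKZF2- cells (log2 change 3.11, adjusted p = 0.0061 by edgeR). Of 18 tested regulatory T cell genes 7 rose and 0 fell (median 0.79), among them CCR4 by 1.91, CTLA4 by 0.93 and IL2RA by 1.67. GATA3 passed only with the dog as a block (0.35, adjusted p = 0.012 by edgeR). TCF7 (-0.80), IL7R (-0.61) and CD40LG (-0.59) fell, as did CDH1 (-1.57), SCML4 (-1.44), RARG (-1.38), KYAT3 (-1.38) and MFSD3 (-1.13).

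Most of these calls were lost without some of the cells or dogs. Without MKI67+ cells 8 genes were higher and 0 lower, among them CCR4 (1.98). By edgeR 0 genes passed within 3000 to 6000 UMIs (939 at an unadjusted p under 0.05) or without dog 3 (1179 at an unadjusted p under 0.05). Without dog 2, 29 genes were higher and 0 lower, and without dog 1, 53 and 7.

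In CD8A sp cells without FOXP3, the 748 IKZF2+ cells differed from the 5593 IKZF2- cells in few genes in the fit without a block, and in more genes with the dog as a block. Of 8123 genes tested, 4 (0.0492%) were higher and 2 (0.0246%) lower (0.0739% in all), and 149 and 161 with the dog as a block. By edgeR 0 genes passed without dog 1 (730 at an unadjusted p under 0.05) or without MKI67+ cells (584), while without dog 2 27 were higher. TOP2A (2.87), CENPF (2.57) and TK1 (1.34), genes of DNA replication and mitosis, were higher, as was the inhibitory receptor gene TIGIT (2.44), at 12.6, 16.5, 27.5 and 36.0 CPM against 2.20, 5.48, 2.47 and 6.30 CPM. CD52 (-2.25, 13.7 ± 2.09 against 60.7 ± 16.8 CPM) and LAT (-0.97), a signalling adaptor of the T cell receptor, were lower. Of the regulatory T cell genes only TIGIT passed among 11 tested, with a list median of -0.02.

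None of 10 tested innate-like CD8 genes passed without a block, with a median of 0.33 beside 0.01 over all genes. FCER1G was at 497, 683, 576 and 879 CPM in IKZF2+ and at 218, 391, 203 and 369 CPM in IKZF2- cells, higher in 4 of 4 dogs without overlap (log2 change 1.10, adjusted p = 0.099 by edgeR), and it passed with the dog as a block (1.12, adjusted p = 1.3e-07). TOX, a factor of exhausted and innate-like cells, was at 151 ± 43.8 against 90.7 ± 19.8 CPM (0.70) and passed with the block (adjusted p = 7.5e-05). MKI67 (2.0, adjusted p = 0.079 by edgeR) passed with the block too (adjusted p = 0.00023). Also passing with the block were IL2RB (0.33), KLRD1 (0.33), CCR7 (-1.08) and KLRB1 (-0.45). GZMK (-0.28) and EOMES (0.16) did not pass in either fit. FOXP3+ CD8A sp cells numbered 1, 19, 50 and 16 in dogs 1 to 4, too few in 3 of 4 dogs for a comparison across genes, and none was made.

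Receptor sequences gave a readout that the counts of the 2 genes did not enter. Each cell with exactly 1 TRB rearrangement was asked whether the same V gene, J gene and junction were found in at least 1 other cell of the dog, as in an expanded clone. In the CD4 sp and dn classes, cells with both FOXP3 and IKZF2 were less often in such clones than cells with FOXP3 alone in each dog. In CD4 sp cells the share was 8.82, 12.7, 4.65 and 3.03% in dogs 1 to 4 for cells with both (14 of 173 cells, exact 95% interval 4.49 to 13.2%) and 9.30, 22.1, 30.8 and 34.2% for cells with FOXP3 alone (80 of 303, 21.5 to 31.7%). In dn cells it was 4.76, 7.84, 10.3 and 2.94% (9 of 135, 3.09 to 12.3%) against 14.3, 33.3, 53.1 and 33.8% (101 of 268, 31.9 to 43.8%). These intervals treat pooled cells as independent and cover counting error only. They leave out the spread between dogs and the fact that cells of a clone are shared together, so they are too narrow.

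Cells with both genes were lower than cells with FOXP3 alone in 4 of 4 dogs in the CD4 sp and in the dn class, by 16.8 ± 14.3 percentage points in CD4 sp and 27.2 ± 13.8 in dn cells. The difference in dog 1 was small in CD4 sp cells. By the exact sign-flip permutation test, two-sided, p was 0.13 in each of these classes, the smallest possible, and 0.375 after adjustment over 12 comparisons, which include those in CD8A sp cells. Cells with FOXP3 alone did not differ detectably from cells with neither gene, at 24.1% ± 11.1 against 26.9% ± 18.6 in CD4 sp cells and 33.6% ± 15.8 against 34.0% ± 16.7 in dn cells. Cells with both genes were lower than cells with neither in 3 of 4 dogs in CD4 sp (exact sign-flip permutation test, p = 0.25), where dog 1 had 8.82% against 4.33%, and in 4 of 4 dogs in dn cells (p = 0.13). FOXP3- IKZF2+ cells were at 29.7% ± 18.4 and 27.3% ± 10.9. In CD8A sp cells, only 6 cells with both genes had 1 TRB, 3 of them shared, at 50% in dogs 2, 3 and 4. With FOXP3 alone, 50, 65.7 and 53.8% of cells were shared in those dogs. Dog 1 had 1 such cell, which was not shared. Cells with FOXP3 alone were below cells with neither gene in 4 of 4 dogs (42.4% ± 29.0 against 64.8% ± 14.2, exact sign-flip permutation test, p = 0.13). FOXP3- IKZF2+ CD8A sp cells were at 71.8% ± 9.59. More than 1 TRB was found in 7.98% of CD4 sp cells with both genes and 5.02% with FOXP3 alone, and in 3.57% and 3.25% in dn cells. FOXP3- IKZF2+ cells were at 7.16% in CD4 sp and 2.56% in dn, and cells with neither gene at 3.53% and 2.39%. The part of barcodes that hold more than 1 cell was not tested.

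**Figure D5:**
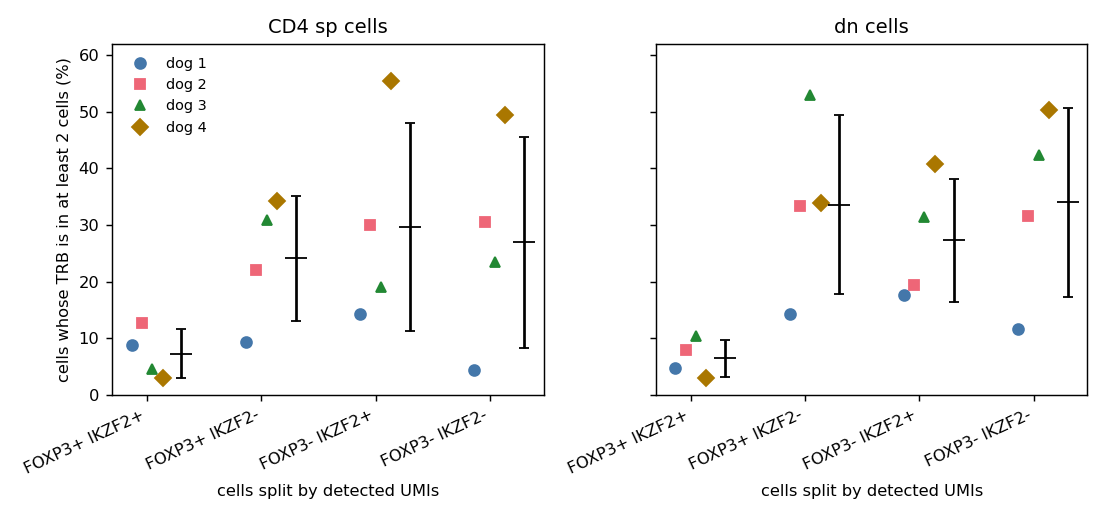
Percentage of cells with exactly 1 TRB whose rearrangement was found in at least 2 cells of the dog, by detected FOXP3 and IKZF2 UMIs, for CD4 sp (left) and dn cells (right), with 1 symbol per dog and the mean and SD. Cells with both genes lie between 2.94 and 12.7% in all dogs of the CD4 sp and dn classes, and each dog was lower there than in cells with FOXP3 alone. CD8A sp cells are not shown.

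Clones were next picked for holding at least 3 FOXP3+ cells, so that repeated FOXP3 in them follows from the choice. In all, 10 clones held at least 3 FOXP3+ cells, 8 of them in dog 3, and their 366 cells included 49 with FOXP3, 2 with IKZF2 and 0 with both. Their sizes ran from 3 to 94 cells. Among all cells of dog 3 in clones of at least 2 cells, 4.32% were FOXP3+. The junctions of the 5 clones with at least 4 FOXP3+ cells and of the clone with the most IKZF2+ cells are printed to show how different the receptors were, 5' to 3', with the first and last codon of the junction in capitals.
FOXP3 clone a, dog 3, TRBV7 and TRBJ2-1: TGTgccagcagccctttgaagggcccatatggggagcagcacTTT
FOXP3 clone b, dog 3, TRBV4-3 and TRBJ2-5: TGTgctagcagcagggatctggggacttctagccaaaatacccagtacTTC
FOXP3 clone c, dog 3, TRBV16 and TRBJ2-6: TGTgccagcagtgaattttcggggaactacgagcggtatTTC
FOXP3 clone d, dog 3, TRBV3-1 and TRBJ2-3: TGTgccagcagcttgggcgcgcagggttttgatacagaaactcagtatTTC
FOXP3 clone e, dog 4, TRBV26 and TRBJ1-6: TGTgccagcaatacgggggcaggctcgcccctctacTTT
IKZF2 clone, dog 4, TRBV3-1 and TRBJ2-1: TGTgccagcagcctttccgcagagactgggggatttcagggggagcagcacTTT

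Clone a had 94 cells, 11 with FOXP3, spread over 34 CD8A sp, 56 dn and 3 CD4 sp cells. Clone b had 40 cells, 8 with FOXP3, of which 17 cells were dp. Clone c had 40 cells, 7 with FOXP3, all CD4 sp or dn, clone d 42 cells, 4 with FOXP3, and clone e 21 cells, 4 with FOXP3. The junctions of the FOXP3 clones were each found in 1 dog. Without all clones of at least 3 FOXP3+ cells, the sharing of cells with FOXP3 alone was 22.0% ± 10.3 in CD4 sp and 28.7% ± 10.3 in dn cells, and cells with both genes were still lower in 4 of 4 dogs.

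IKZF2+ CD8A sp cells without FOXP3 were also compared in receptor use, at first in cells with exactly 1 alpha chain (TRA), which were 81 of 113, 142 of 189, 128 of 176 and 147 of 270 IKZF2+ cells of dogs 1 to 4. The alpha chain TRAV9-11 joined to TRAJ28 was carried by 43.2, 26.8, 32.0 and 15.0% of IKZF2+ cells of dogs 1 to 4 and by 27.9, 15.3, 13.4 and 6.88% of IKZF2- cells, higher in 4 of 4 dogs (exact sign-flip permutation test, two-sided p = 0.13, also 0.13 after adjustment over 3 receptors). Read the other way, IKZF2 was at 83.1, 72.8, 70.4 and 83.0 CPM in TRAV9-11/TRAJ28 cells and at 29.6, 34.6, 21.9 and 28.5 CPM in cells of the remaining TRAV genes, with no overlap. TRAV9-11 cells with other TRAJ genes were at 91.9, 13.1, 17.6 and 62 CPM, high in dogs 1 and 4 only (60 IKZF2+ among 454 cells), and TRAV24 cells at 35.0 ± 10.4 CPM (36 IKZF2+ among 315 cells). A clone of dog 1, most often read with TRAV9-11 and TRAJ31, held 9 IKZF2+ cells among 14. A clone of dog 4, most often read with TRAV9-11 and TRAJ20, held 11 among 53. Clones most often read with TRAV9-11 and TRAJ28 held 12 IKZF2+ cells among 41 in dog 1, 15 among 118 in dog 3 and 8 among 24 in dog 4. The part of all these clones in the values of dogs 1, 3 and 4, also those of TRAV9-11/TRAJ28 cells, was not tested.

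Most cells of the IKZF2 clone printed above were left out by that restriction. It held 54 IKZF2+ cells among 129, of which 99 had more than 1 TRA, 119 carried TRAV24 with TRAJ38 and 108 TRAV9-7 with TRAJ45, so that up to 54 of the 273 IKZF2+ CD8A sp cells of dog 4 came from 1 clone. Its junction was also read in 5 cells of a second dog. With cells of any number of TRA, an alternative chosen after these values were seen, TRAV9-11/TRAJ28 was in 43.0, 26.6, 30.4 and 11.2% of IKZF2+ and in 27.2, 15.7, 13.7 and 6.43% of IKZF2- cells, still higher in 4 of 4 dogs. TRAV24, by contrast, changed direction. With exactly 1 TRA it was in 4.76% of IKZF2+ and 5.73% of IKZF2- cells of dog 4, and lower in IKZF2+ cells of all dogs, whereas with any number it was in 28.6 and 10.3% in dog 4 and higher in 2 of 4 dogs (exact sign-flip permutation test, p = 0.75). IKZF2 in TRAV24 cells then stood at 45.9, 39.1, 36.5 and 96.6 CPM, high in the dog with the large clone.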

How the data were processed

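The authors sorted TCRαβ+ cells, sequenced 5' gene expression and V(D)J libraries, and deposited UMI counts, raw and by cell barcode, for genes and for receptor rearrangements, made with Cell Ranger 5.0.1. The barcodes were those called as cells, and nothing was normalized. The gene list of dog 1 (27980 lines) did not match its matrix of 20257 genes, and the list of dog 2 was used for all dogs. The row totals of dog 1 under this list correlated with those of the other dogs at r = 0.989 to 0.991 across genes.

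Cells were kept at 500 to 20000 UMIs if 13 mitochondrial genes gave no more than 10% of them. The 4 libraries held 26904346 to 35661623 UMIs before this filter, of which FOXP3 had 273 to 603 and IKZF2 647 to 1085 in kept cells, so that single cells say little about absence. No doublet caller was run. The share of receptor-bearing cells with more than 1 TRB was 3.04 to 4.73%, and an alternative used cells with exactly 1.

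UMIs were summed per dog and cell group and tested with edgeR 4.0.16 in R 4.3.3 (quasi-likelihood test, TMM scaling, filterByExpr, Benjamini-Hochberg adjustment over all genes tested). The 3 classes shared 1 fit, and the comparisons of dn and CD4 sp cells with CD8A sp cells share the CD8A sp sums. The gene that split the cells of a comparison within a class was left out of its fit. FOXP3 stayed in the fits within FOXP3+ cells, though it had chosen those cells. Shares, odds ratios and receptors were compared over dogs with exact two-sided sign-flip permutation tests, whose smallest p is 0.13. Thinned shares are expected values. They average over cells the computed probability that a gene would be captured among 2000 UMIs of the cell, with no random draw. DESeq2 1.42.0 was an alternative, beside no filter, cells of at least 2000 UMIs and leaving out each dog. The alternatives with cells of 3000 to 6000 UMIs, without MKI67+ cells, without clones of at least 3 FOXP3+ cells and with any number of TRA, and the split of FOXP3+ dn cells, were chosen after seeing the data. The procedure was tested on simulated counts.

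The same dogs supplied both groups, so the samples formed pairs by dog. The main fits did not use this pairing, and the dog as a block was an alternative. In 35 of 36 cases the deviations of a dog correlated above 0.1 between groups (0.0956 to 0.835). A fit with the dog as a block is given where it changed the call of a named gene. Genes were named by a rule, namely the 10 largest increases and 5 largest decreases (5 and 5 within FOXP3+ cells) with an adjusted p under 0.05 and the same direction in 4 dogs, plus members of fixed lists. The filter on low counts keeps a gene that is high in a single group. Leading increases can therefore include genes that entered a fit only through that group. The 2 genes, the lists and the tests were chosen with earlier results of these data known. Some genes of the fixed lists are not reported here.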

Additional observations from a re-analysis of the deposited data

Results flagged for a closer look

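Dog by dog, 380 groups of 4 values were examined for a value set apart from the other 3 by Dixon's criterion, and 32 were picked out where about 19 would be by chance, which picks out about 1 group in 20. Each is given as a value with no explanation. The share of dp cells with both genes was 5.62% in dog 1 and 1.16 to 1.90% in the others. In FOXP3- IKZF2+ CD8A sp cells, a shared TRB was found in 86.1% of cells of dog 4 and in 65.6 to 68.1% in the others. FOXP3 in MKI67+ CD8A sp cells was at 3.59 CPM in dog 3 and at 0 in the others, and rested on 1 FOXP3+ cell among 154 cells of all dogs. IKZF2 in FCER1G+ GZMB- CD8A sp cells was at 112 CPM in dog 4 and at 83.3 to 86.5 CPM in the others. FOXP3 in CXCR3+ dn cells was at 15.1 CPM in dog 4 and at 40.2 to 43.3 CPM in the others.

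CD40LG was at 23.5 CPM in FOXP3+ CD4 sp cells of dog 1 and at 50.8 to 53.4 CPM in the others. TNFRSF4 was at 36 CPM in FOXP3+ CD4 sp cells of dog 4 and at 21.4 to 22.6 CPM in the others. GATA3 was at 92.5 CPM in FOXP3- CD4 sp cells of dog 1 and at 108 to 112 CPM in the others. CTLA4 was at 373 CPM in FOXP3+ CD4 sp cells of dog 1 and at 265 to 281 CPM in the others. IRF4 was at 5.22 CPM in FOXP3- CD4 sp cells of dog 3 and at 8.64 to 9.25 CPM in the others. FCER1G was at 7.80 CPM in FOXP3+ dn cells of dog 4 (139 cells with 640708 UMIs in all, so near the floor) and at 0 CPM in the others. PDE3B was at 25.9 CPM in FOXP3+ dn cells of dog 1 and at 8.05 to 10.9 CPM in the others. TNFRSF18 was at 14.9 CPM in FOXP3- dn cells of dog 3 and at 20.9 to 21.4 CPM in the others. NRP1 was at 17.4 CPM in FOXP3+ dn cells of dog 3 and at 29.7 to 31.2 CPM in the others.

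TK1 was at 30.1 CPM in IKZF2- FOXP3- CD8A sp cells of dog 2 and at 18 to 19.6 CPM in the others. CCR7 was at 22 CPM in IKZF2- FOXP3- CD8A sp cells of dog 4 and at 72.6 to 76.2 CPM in the others. EOMES was at 41.4 CPM in IKZF2- FOXP3- CD8A sp cells of dog 1 and at 56.1 to 57.6 CPM in the others. CCNB2 was at 20.6 CPM in IKZF2+ FOXP3- CD4 sp cells of dog 1 and at 6.79 to 8.39 CPM in the others. H3C11 was at 1.54 CPM in IKZF2- FOXP3- CD4 sp cells of dog 3 and at 1.96 to 2 CPM in the others. CLSPN was at 34.1 CPM in IKZF2+ FOXP3- CD4 sp cells of dog 3 and at 8.39 to 11 CPM in the others. GATA3 was at 89.9 CPM in IKZF2- FOXP3- CD4 sp cells of dog 1 and at 107 to 110 CPM in the others.

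GNG3 was at 61.5 CPM in FOXP3+ IKZF2- CD4 sp cells of dog 1 and at 17.4 to 21.7 CPM in the others. IL7R was at 343 CPM in FOXP3+ IKZF2- CD4 sp cells of dog 1 and at 669 to 709 CPM in the others. BHLHE40 was at 14.2 CPM in FOXP3+ IKZF2+ CD4 sp cells of dog 3 and at 48.5 to 54.8 CPM in the others. IL2RA was at 61.5 CPM in FOXP3+ IKZF2- CD4 sp cells of dog 1 and at 23.9 to 26.2 CPM in the others. IL2RB was at 320 CPM in FOXP3+ IKZF2+ CD4 sp cells of dog 1 and at 414 to 416 CPM in the others. IL2RB was at 184 CPM in FOXP3+ IKZF2- CD4 sp cells of dog 1 and at 254 to 263 CPM in the others. IRF4 was at 28.2 CPM in FOXP3+ IKZF2- CD4 sp cells of dog 2 and at 10.8 to 13.2 CPM in the others. FABP3 was at 17 CPM in FOXP3+ IKZF2- dn cells of dog 3 and at 46.2 to 47.1 CPM in the others. TRAT1 was at 142 CPM in FOXP3+ IKZF2- dn cells of dog 3 and at 70.8 to 78.5 CPM in the others. TNFSF8 was at 26 CPM in FOXP3+ IKZF2+ dn cells of dog 4 and at 11.8 to 13.8 CPM in the others. TCF7 was at 80.6 CPM in FOXP3+ IKZF2- dn cells of dog 4 and at 140 to 148 CPM in the others.

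The dp cells, which no comparison between classes used, also held both genes. FOXP3 was captured in 6.72% of dp cells on average (3.79 to 10.1% over dogs) and IKZF2 in 13.5% (7.54 to 19.1%), at a median depth of 5656 UMIs. The FCER1G+ GZMB+ cells, the group of CD8A sp cells with the lowest FOXP3, held it in 2 of 957 cells at a median of 3550 UMIs. They are no independent background, and the part of the greater depth of dp cells was not tested.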

How the results depend on the processing

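Of the results that answer a comparison, 224 values under the alternatives kept their direction, their side of the threshold or their size, 101 moved, 4 reversed, 3 fell short of a threshold that the reported value passed and 2 passed one that it missed. FOXP3 against CD8A sp cells kept its call under every alternative run, and so did IKZF2 in FOXP3+ against FOXP3- cells of the CD4 sp and dn classes. IKZF2 in CD4 sp against CD8A sp cells ranged from -0.96 to -0.54 over the leave-one-out fits and was lost in 3 of 4. In dn against CD8A sp cells it ranged from -0.79 to -0.49 and passed with the block on dog (-0.62) and DESeq2 (-0.67).

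With the dog as a block, genes higher and lower numbered 770 and 482 for FOXP3+ CD4 sp cells, 707 and 422 for FOXP3+ dn cells, 149 and 161 for IKZF2+ CD8A sp cells, 629 and 436 for IKZF2+ CD4 sp cells, 304 and 247 for cells with both genes in CD4 sp and 202 and 176 in dn. DESeq2 gave 559 higher in FOXP3+ CD4 sp cells, 475 in FOXP3+ dn cells, 47 higher and 22 lower in IKZF2+ CD8A sp cells, 377 and 147 in IKZF2+ CD4 sp cells, and 79 and 58 lower in cells with both genes of the CD4 sp and dn classes. Without a filter on low counts the numbers were 38 and 17 in IKZF2+ CD8A sp cells, 96 lower in IKZF2+ CD4 sp cells, and 236 and 153 lower in cells with both genes of CD4 sp and dn. With exactly 1 TRB, 9 genes were higher in IKZF2+ CD8A sp cells, and 62 higher and 53 lower in dn cells with both genes.

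In cells of 3000 to 6000 UMIs the counts fell to 24 and 4, 15 and 5, 1 and 0, 0 and 0, 7 and 5, and 0 and 0 in the order of comparisons just given for the block. Without MKI67+ cells they were 99 and 21, 51 and 8, 0 and 0, 8 and 0, 93 and 43, and 59 and 37. Both alternatives test fewer cells, and no other cause was tested. Leaving out 1 dog gave 36 to 263 higher and 6 to 71 lower, 57 to 177 and 6 to 44, 0 to 27 and 0 to 2, 0 to 194 and 0 to 78, 66 to 200 and 38 to 146, and 25 to 121 and 30 to 89, in the same order.

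FOXP3 between dn cells with both genes and with FOXP3 alone was -0.046 without dog 2 and -0.051 without dog 3 (range -0.051 to 0.14 over the dogs left out). Thinning lowered the expected shares of FOXP3+, IKZF2+ and double-positive cells to 2.6, 3.25 and 0.507% in CD4 sp and 2.94, 3.55 and 0.532% in dn cells, and of IKZF2+ and double-positive cells to 6.88 and 0.0374% in CD8A sp cells. The log2 odds ratio of co-detection without ranges of depth was 0.41 in CD8A sp and 3.13 in dn cells, and with exactly 1 TRB it was -0.41 in CD8A sp cells. The TRAV24 share of IKZF2+ less that of IKZF2- CD8A sp cells was -1.91 percentage points with exactly 1 TRA and 3.68 with any number.

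Of the named genes' values under alternatives, 1346 kept their direction and side of the threshold, 340 missed it, 24 newly passed and 3 reversed, namely EOMES (-0.013 without dog 2 and up to 0.36 without another dog) and GZMK (0.04 in cells of 3000 to 6000 UMIs) in IKZF2+ CD8A sp cells and H1-5 (-0.12 without MKI67+ cells) in IKZF2+ CD4 sp cells. Most FOXP3+ and IKZF2+ cells rested on a single UMI, so FOXP3- and IKZF2- cells include cells whose transcript was not captured. With 4 dogs no sign-flip test could reach 0.05. The causes of these shifts were not tested.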

Other observations

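Co-detection in the dp class is given here because no comparison used it. IKZF2 was captured in 14 of 46 FOXP3+ dp cells (30.4%) and 75 of 679 FOXP3- dp cells (11%), and GATA3 in 26 of 46 (56.5%) and 271 of 679 (39.9%). These are values over pooled cells with no test, and the number of dp barcodes that hold more than 1 cell was not measured.

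Cells that shared a TRB with a FOXP3+ cell were seldom FOXP3+ themselves. Of 963 FOXP3+ cells with exactly 1 TRB, 251 were in clones of at least 2 cells. Pairing each of them with every other cell of its clone gave 4316 pairs, in 7.60% of which the other cell was FOXP3+ too, beside 2.82% of all cells in such clones. The share over pairs was 8.33, 4.46, 8.61 and 4.73% in dogs 1 to 4, beside 2.08, 2.81, 4.32 and 1.75% of cells in clones, higher in each dog. In dog 1 it rested on 2 of 24 pairs, and dog 3 gave 276 of the 328 pairs with FOXP3 in both cells. The cells in clones were of every class, also CD8A sp, where FOXP3 was rarer. The part of cell class was not tested. No test was made, since the cells of a clone are counted repeatedly.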
